A study of Mus musculus with 6 samples.

Results

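The 10 genes described here belong to hepatic insulin signalling and its FOXO branch: the receptor gene Insr, the adaptor genes Irs1 and Irs2, the PI3-kinase subunit gene Pik3r1, the kinase gene Akt2, the transcription factor genes Foxo1 and Foxo3, and the target genes Igfbp1, Depp1 and Tsc22d3. They were taken by symbol from the 21512 genes of the deposited table, and all 10 were found there and passed the filter on low values. RNA came from whole liver of 3 mice given anti-PD-1 antibody, which blocks an inhibitory receptor on activated T cells, and of 3 mice given isotype control antibody. Each antibody was given every 3 days over the 12 weeks in which all 6 C57BL/6J mice ate a high-fat diet and were treated with CCl4 (carbon tetrachloride, a liver toxin), a mouse model of fibrosing metabolic steatohepatitis. No mouse without the diet and CCl4 is among them, so the values describe differences within that model. Age, sex, antibody dose and feeding state at sampling are not given in the sources used here.

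Insulin binds its receptor on hepatocytes, the receptor phosphorylates the adaptors IRS1 and IRS2, and these recruit PI3-kinase, which activates AKT2. AKT phosphorylates FOXO proteins and keeps them out of the nucleus, so genes that FOXO activates, such as Igfbp1 and Irs2, are typically high in fasting and low after feeding, while insulin-induced genes run the other way. Most of this control acts on proteins, and RNA shows only the pathway's transcribed components and outputs.

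Promoters bear on how the target genes and adaptors are read, because FOXO binds the insulin response sequence, whose half-site carries the letters CAAAACA and is paired in some genes with a second half-site, CAAAATAA. The RefSeq promoter table (build GRCm38.p6, older than the build of the expression data) held 15 windows for 9 of the 10 genes. The 250 bases before the annotated start are shown for the 4 genes whose window held a searched motif. Capitals mark every match, on either strand, to either half-site, to the FOXO consensus GTAAACA or to the E-box CACGTG.
Igfbp1, chr11:7197537-7197786, plus strand: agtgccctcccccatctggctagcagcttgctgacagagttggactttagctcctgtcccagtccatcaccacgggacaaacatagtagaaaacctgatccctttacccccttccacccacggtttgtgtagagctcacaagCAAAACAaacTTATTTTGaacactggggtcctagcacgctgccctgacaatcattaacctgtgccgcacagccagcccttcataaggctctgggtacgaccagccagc
Irs2, chr8:11008930-11009179, minus strand: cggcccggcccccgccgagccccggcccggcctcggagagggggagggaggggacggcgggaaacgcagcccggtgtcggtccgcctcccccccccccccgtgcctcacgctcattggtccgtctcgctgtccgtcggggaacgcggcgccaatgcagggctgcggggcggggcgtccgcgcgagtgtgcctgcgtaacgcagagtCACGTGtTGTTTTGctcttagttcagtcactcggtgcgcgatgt
Irs1, chr1:82291440-82291689, minus strand: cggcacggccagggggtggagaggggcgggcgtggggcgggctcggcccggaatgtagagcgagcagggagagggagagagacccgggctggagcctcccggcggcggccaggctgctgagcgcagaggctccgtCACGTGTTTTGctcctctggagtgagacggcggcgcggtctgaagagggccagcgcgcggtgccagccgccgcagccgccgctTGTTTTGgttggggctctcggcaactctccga
Depp1, chr6:116650434-116650683, plus strand: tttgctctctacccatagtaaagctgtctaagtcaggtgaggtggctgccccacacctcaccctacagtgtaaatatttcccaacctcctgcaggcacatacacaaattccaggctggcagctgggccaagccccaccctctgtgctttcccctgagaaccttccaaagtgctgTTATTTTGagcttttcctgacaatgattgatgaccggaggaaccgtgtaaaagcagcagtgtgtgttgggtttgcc

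The Igfbp1 window held both half-sites of the insulin response sequence, from 108 to 102 and from 98 to 91 bases before the start. Of the searched motifs, Depp1 held the partner half-site alone, from 76 to 69 bases before its start. Irs2 held a CAAAACA match on the opposite strand 37 to 31 bases before its start, beside an E-box. Irs1 held a pair of such matches, one of them overlapping its E-box. Among 32851 promoter windows of the same length, 5.56% held the CAAAACA half-site, 1.49% the CAAAATAA half-site, 3.17% the FOXO consensus and 6.02% the E-box. The windows of Foxo1, Foxo3, Akt2, Pik3r1 and Tsc22d3 held none of the searched motifs. For the FOXO consensus only the spelling GTAAACA was searched. Other spellings, such as GTAAATA, were not, and those letters stand unmarked in the Depp1 window and in a window of Akt2. A match is a string of letters and not a measured binding site.

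Libraries held 15528364 to 20779319 recovered reads, and every value of the 10 genes rested on at least 319 reads. Values are CPM, read counts relative to library depth, scaled between libraries by trimmed-mean factors. The hepatocyte markers were high in every library (summed level 71187 to 87482 CPM after anti-PD-1 and 72816 to 93610 CPM in isotype controls). Markers of some other cell types differed between groups or between single libraries. Endothelial markers summed to 288 to 334 CPM after anti-PD-1 and 325 to 328 CPM in controls. For stellate markers the sums were 544 to 712 CPM and 490 to 593 CPM, so both overlapped between groups. The 8 T cell markers summed to 41.5, 6.66 and 8.38 CPM in anti-PD-1 replicates 1 to 3, against 2.36 to 3.94 CPM in the controls, so every anti-PD-1 library was above every control. Neutrophil markers were also highest in anti-PD-1 replicate 1, with sums of 36.2, 5.86 and 10.2 CPM after anti-PD-1 and 7.39 to 8.36 CPM in controls, as were B cell markers, with sums of 24.4, 4.86 and 6.42 CPM after anti-PD-1 and 4.63 to 13.4 CPM in controls. Cholangiocyte markers summed to 78.0 to 135 CPM after anti-PD-1, against 93.4, 118 and 235 CPM in controls, highest in isotype control replicate 3. The 7 Kupffer cell markers summed to 287, 196 and 184 CPM in anti-PD-1 replicates 1 to 3. In isotype control replicates 1 to 3 they summed to 409, 178 and 231 CPM. Their median log2 fold change was -1.59, and 5 of the 7 were lower at an unadjusted limma p under 0.05 (6.24% of all tested genes). Of the 7, 4 lay wholly below the controls (9.98%), and 1 passed the filter on low values through 1 group only. Limma's adjusted test called 0 of the 7 (0.00715% of all tested genes). Limma with the replicate block called 1 (0.286% in either direction) and DESeq2 3 (0.835% of genes with an adjusted p), all lower. The 5 adipocyte markers summed to 19.9 CPM in isotype control replicate 2, against at most 0.101 CPM in each of the other 5 libraries, with Adipoq, Lep and Retn at 0 in those 5. Isotype control replicate 1 was the control farthest from the other controls on several of the genes below. The part of these markers in the results below was not tested.

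None of the 10 genes passed the test. In limma's fit across all 13990 tested genes, with p-values adjusted after Benjamini and Hochberg and called under 0.05, 0 of the 10 and 1 gene in all (0.00715%) were called. With the replicate number as a block, 40 genes in all were called (0.286%), again with 0 of the 10. This pairing was taken from the values and is not given by the labels. edgeR on the recovered reads called 1 gene in all (0.00715%) and 0 of the 10. DESeq2 called 261 of 13168 genes with an adjusted p (1.98%), among them Depp1. At an unadjusted p under 0.05 in limma, Igfbp1, Foxo1 and Foxo3 were higher after anti-PD-1 (705 genes or 5.04% of all tested) and Irs1, Depp1 and Tsc22d3 lower (873 genes or 6.24%). The anti-PD-1 values lay wholly above the control values for 2 of the 10 genes, Igfbp1 and Foxo1 (7.13% of all tested), and wholly below for 2, Depp1 and Tsc22d3 (9.98%). The genes were chosen with earlier results of these data known, so these counts describe them and are no evidence about the pathway. In whole-liver RNA, fewer cells of a type and less RNA per cell cannot be told apart.

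**Figure D1:**
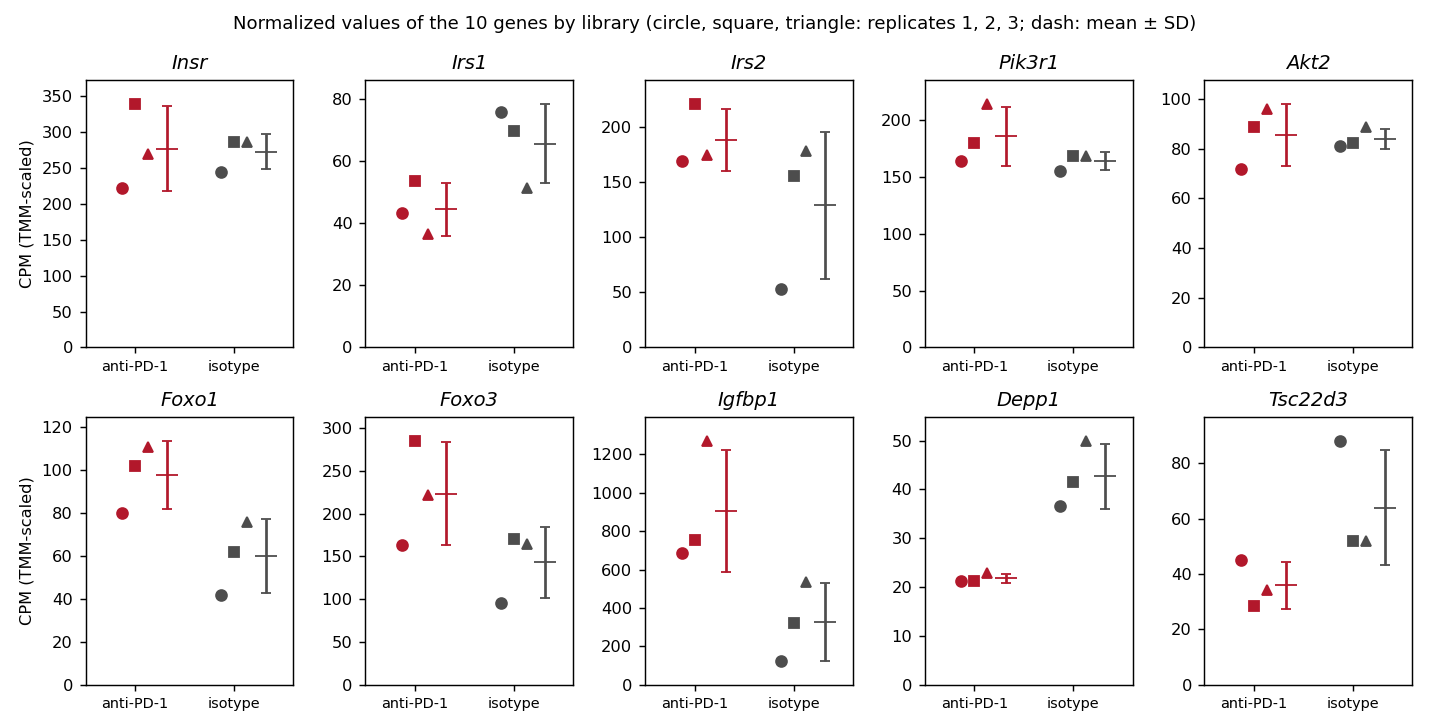
CPM (vertical axis, from 0) of each of the 10 genes in every library, anti-PD-1 in red and isotype control in grey; symbols are replicates and the dash with bars is the mean ± SD (n = 3). Igfbp1 and Foxo1 lie higher and Depp1 and Tsc22d3 lower in all anti-PD-1 libraries than in any control, and none of the 10 passed the test.

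Insr, the insulin receptor, had 222, 339 and 269.9 CPM in anti-PD-1 replicates 1 to 3, against 244, 287 and 286 CPM in isotype control replicates 1 to 3. The anti-PD-1 values spanned the controls. The fitted log2 fold change, 0.0066 ± 0.16 (SE), had a 95% interval from -0.37 to 0.39 (limma adjusted p = 0.994). The interval leaves room for a change in either direction and does not show that the groups were equal.

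Irs1, an adaptor used by the receptor, had 43.3, 53.5 and 36.5 CPM in anti-PD-1 libraries, against 75.9, 69.6 and 51.4 CPM in controls. The groups overlapped in 1 pair, anti-PD-1 replicate 2 and isotype control replicate 3. The log2 fold change was -0.55 ± 0.19 (SE; limma adjusted p = 0.348, DESeq2 adjusted p = 0.177). Between libraries of equal replicate number Irs1 was lower after anti-PD-1 in 3 of 3 pairs (limma adjusted p = 0.125 with the replicate block). All 2822 exon bases of Gm9747, an annotated gene on the opposite strand, lie within exons of Irs1. Gm9747 had 2.64, 2.40 and 3.05 CPM after anti-PD-1, against 11.6, 6.60 and 5.43 CPM in controls, so all its anti-PD-1 values were below the controls (log2 fold change -1.33 ± 0.27, limma adjusted p = 0.232, DESeq2 adjusted p = 0.00324). The library kit keeps strand, but whether counting used it is not stated in the sources used here, so reads of the pair may be split between them.

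Irs2, the adaptor whose transcription insulin represses in liver, had 169.5, 221 and 175 CPM in anti-PD-1 libraries, against 53.3, 156 and 178 CPM in controls. Isotype control replicate 1 stood far under the other 5 libraries, which ran from 156 to 221 CPM. The log2 fold change was 0.71 ± 0.41 (SE; limma adjusted p = 0.558), and without isotype control replicate 1 it was 0.17 (adjusted p = 0.817). The Irs2 to Irs1 ratio within each library does not depend on scaling between libraries. Per kilobase of annotated exon it was 5.66, 5.96 and 6.93 in anti-PD-1 libraries and 1.02, 3.24 and 5.02 in controls, so no anti-PD-1 ratio lay within the control range. This ratio was chosen after the values were seen and was not tested.

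Pik3r1, which encodes the p85-alpha regulatory subunit of PI3-kinase, had 164, 179.7 and 214 CPM in anti-PD-1 libraries, against 155, 169 and 169 CPM in controls (log2 fold change 0.17 ± 0.12, limma adjusted p = 0.626). Anti-PD-1 replicate 1 lay among the controls. Pik3r1 was higher after anti-PD-1 in 3 of 3 pairs of equal replicate number (limma adjusted p = 0.467 with the replicate block). Leaving out anti-PD-1 replicate 3 gave Pik3r1 a log2 fold change of 0.064, and leaving out replicate 1 of that group gave 0.26. Akt2, the main AKT kinase gene of insulin action in liver, had 71.9, 88.8 and 96.1 CPM after anti-PD-1, against 81.0, 82.5 and 88.6 CPM in controls. The fitted log2 fold change, 0.017 ± 0.12, had a 95% interval from -0.27 to 0.30 (limma adjusted p = 0.972). The other AKT gene named here, Akt1, averaged 42.1 ± 2.08 CPM after anti-PD-1 and 38.0 ± 3.68 CPM in controls (SD, n = 3 each; limma adjusted p = 0.633). A processed pseudogene, Akt2-ps, carries 1449 bases at 98.6% identity to an Akt2 transcript and was not analysed here, so reads from it could be counted as Akt2. Likewise, antisense genes share 674 exon bases with Foxo1 (Gm20402) and 162 with Irs2 (9530052E02Rik), and a processed pseudogene, Gm8812, aligns to 175 bases of Tsc22d3 at 96.6% identity. Rsf1, a protein-coding gene, aligns to 126 bases of Foxo1 at 95.2% identity. It had 36.6, 34.3 and 36.3 CPM after anti-PD-1, against 34.8, 36.5 and 39.3 CPM in controls (limma adjusted p = 0.895).

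Foxo1, the FOXO factor best known for hepatic glucose production, had 79.9, 102 and 111 CPM in anti-PD-1 libraries, against 41.9, 62.0 and 75.9 CPM in controls. All anti-PD-1 values were above all controls, by a narrow gap between anti-PD-1 replicate 1 and isotype control replicate 3. The log2 fold change was 0.73 ± 0.22 (SE), with a 95% interval from 0.21 to 1.24 (limma adjusted p = 0.311, DESeq2 adjusted p = 0.0848). Foxo3, a related factor with overlapping targets, had 164, 284 and 222 CPM after anti-PD-1, against 94.96, 170.1 and 164 CPM in controls. Its groups overlapped, since anti-PD-1 replicate 1 lay level with isotype control replicate 3. For Foxo3 the fitted log2 fold change was 0.65 ± 0.27 (limma adjusted p = 0.421). Between libraries of equal replicate number Foxo3 was higher after anti-PD-1 in 3 of 3 pairs (limma adjusted p = 0.0898 with the replicate block). Without isotype control replicate 1, the control lowest in both genes, the log2 fold changes were 0.49 for Foxo1 and 0.38 for Foxo3. Foxo4, another member of the family, stood at 14.9 to 18.8 CPM after anti-PD-1 and 17.8 to 18.2 CPM in controls (log2 fold change -0.066 ± 0.12, limma adjusted p = 0.872). Without anti-PD-1 replicate 1 the log2 fold change of Foxo4 was 0.031. Per kilobase of annotated exon, the Foxo3 to Foxo1 ratio was 2.34, 3.19 and 2.30 after anti-PD-1 and 2.60, 3.14 and 2.47 in controls, so the ranges of the groups overlapped.

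Igfbp1, a secreted binder of insulin-like growth factors that insulin represses and fasting induces, had 689, 755 and 1267 CPM in anti-PD-1 libraries, against 125, 321 and 535 CPM in controls. Every anti-PD-1 library exceeded every control, and the controls themselves spread over more than the gap between the groups. The group means were 904 ± 317 CPM after anti-PD-1 and 327 ± 205 CPM in controls (SD, n = 3 each), a 2.76-fold ratio. The log2 fold change was 1.65 ± 0.49 (SE), with a 95% interval from 0.51 to 2.78 (limma adjusted p = 0.304, DESeq2 adjusted p = 0.217). Leaving out isotype control replicate 1 gave 1.07, and leaving out isotype control replicate 3 gave 2.12. Per kilobase of annotated exon, Igfbp1 stood at 27.9, 20.1 and 42.3 times the Insr level after anti-PD-1 and at 4.60, 10.1 and 16.8 times it in controls. Igfbp2, another binding-protein gene of liver, had 95.1, 155 and 143 CPM after anti-PD-1, against 173, 134 and 101 CPM in controls, with overlapping groups (limma adjusted p = 0.959). Per kilobase, Igfbp1 stood at 8.78, 5.90 and 10.7 times Igfbp2 after anti-PD-1 and at 0.875, 2.91 and 6.41 times it in controls. The groups overlapped in the ratio to Igfbp2, and neither the ratio to Insr nor that to Igfbp2 was tested.

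Depp1, a fasting- and FOXO-induced gene tied to autophagy, had 21.3, 21.2 and 22.9 CPM in anti-PD-1 libraries, against 36.6, 41.6 and 49.8 CPM in controls. The anti-PD-1 values were close to each other and all below the controls, averaging 21.8 ± 0.929 CPM against 42.7 ± 6.69 CPM in controls (SD, n = 3 each). The log2 fold change of Depp1, -0.94 ± 0.13 (SE), ranked 10th by p among the 13990 genes (limma adjusted p = 0.129). The call depended on the test: DESeq2 gave an adjusted p of 7.02e-06 and limma with library weights 0.0463, while edgeR gave 0.152 and limma with the replicate block 0.0502. With each library left out in turn, the log2 fold change ran from -1.05 to -0.83 and the adjusted p from 0.0772 to 0.638. Depp1 thus lay in the opposite direction to Igfbp1, although both are described as FOXO-induced.

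Tsc22d3, which encodes the glucocorticoid-induced leucine zipper protein and is also a reported FOXO target, had 44.9, 28.5 and 34.1 CPM in anti-PD-1 libraries, against 87.8, 52.0 and 51.9 CPM in controls. All anti-PD-1 values were below all controls, and isotype control replicate 1 was well above the other 2 controls. The log2 fold change was -0.80 ± 0.24 (SE), with a 95% interval from -1.36 to -0.25 (limma adjusted p = 0.304, DESeq2 adjusted p = 0.0779). Without isotype control replicate 1 it was -0.55 (adjusted p = 0.533). The T cell markers, whose cells also use Tsc22d3, were highest in anti-PD-1 replicate 1, the anti-PD-1 library with the highest Tsc22d3. Between groups the order was the reverse, since controls had lower T cell marker sums (2.36 to 3.94 CPM) and higher Tsc22d3. Kupffer cell marker sums also peaked where Tsc22d3 did within each group, at 287 CPM in anti-PD-1 replicate 1 and 409 CPM in isotype control replicate 1. The part of either cell type in Tsc22d3 was not tested.

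**Figure D2:**
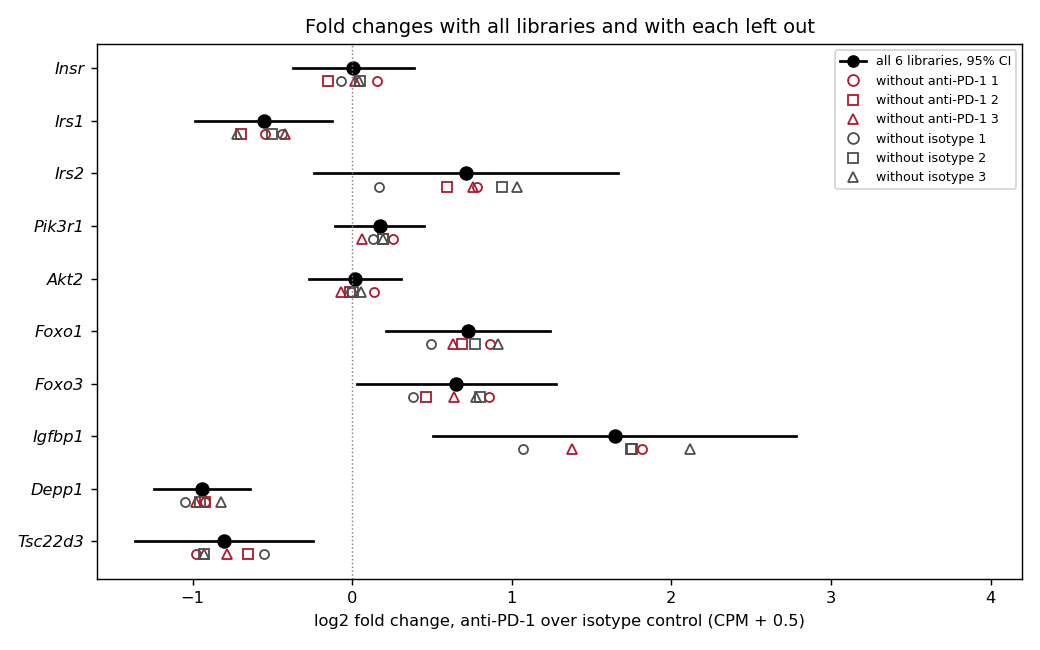
Log2 fold change of each gene, anti-PD-1 over isotype control, on log2(CPM + 0.5): black points with 95% intervals use all 6 libraries, open symbols leave out 1 library each (red: anti-PD-1, grey: isotype control). Without isotype control replicate 1 Irs2 is at 0.17, against 0.71 with all libraries, and Igfbp1 at 1.07, against 1.65, while Depp1 stays between -1.05 and -0.83.

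Across libraries the 10 genes did not share one order. On log2 values set against the control mean, isotype control replicate 1 was at -1.15 for Igfbp1, -1.09 for Irs2, -0.54 for Foxo3 and -0.47 for Foxo1, and at 0.50 for Tsc22d3. It was thus the control farthest from the anti-PD-1 libraries on these 5 genes. Isotype control replicate 3 lay nearest to the anti-PD-1 libraries on Igfbp1 (0.94), Foxo1 (0.38), Irs2 (0.64) and Irs1 (-0.33). For Depp1 the order was the other way, with isotype control replicate 3 at 0.23 and the anti-PD-1 libraries at -0.98, -0.98 and -0.87. Among anti-PD-1 libraries, replicate 1 was lowest for Insr, Irs2, Foxo1, Foxo3, Igfbp1, Akt2 and Pik3r1. Leaving it out moved the log2 fold change of Foxo3 to 0.86 and of Insr to 0.15, with 0 of the 10 genes passing.

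**Figure D3:**
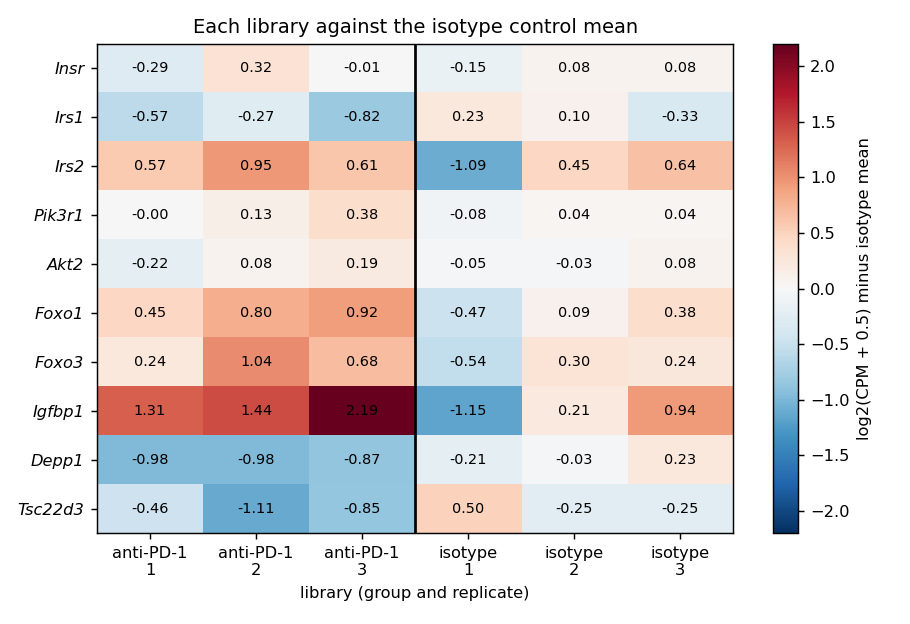
Log2(CPM + 0.5) of each gene minus the mean of the 3 isotype controls, by library, anti-PD-1 at the left; red is above and blue below that mean. Isotype control replicate 1 is at -1.15 for Igfbp1 and -1.09 for Irs2, and Depp1 is at -0.98 to -0.87 in the anti-PD-1 libraries.

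Levels between genes can be compared only per length. In CPM per kilobase of annotated exon, Igfbp1 was by far the most abundant of the 10, at 593 ± 208 after anti-PD-1 and 214 ± 134 in controls (SD, n = 3 each). After anti-PD-1 the next were Irs2 (29.8 ± 4.45) and Foxo3 (29.5 ± 7.97), which did not differ beyond their spread, then Insr (20.2 ± 4.28), Pik3r1 (18.5 ± 2.57) and Depp1 (16.05 ± 0.684), then Akt2 (12.0 ± 1.74) and Foxo1 (11.2 ± 1.82), and last Tsc22d3 (8.26 ± 1.92) and Irs1 (4.86 ± 0.936). In controls Depp1 (31.4 ± 4.93) came second, ahead of Irs2 (20.4 ± 10.5), Insr (19.8 ± 1.77) and Foxo3 (18.9 ± 5.51), which did not differ beyond their spread, while Irs1 (7.18 ± 1.39) and Foxo1 (6.91 ± 1.98) were lowest. These lengths join all annotated exons of a gene, so they are at least as long as any one transcript.

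The rest of the pathway was read from 8 lists holding 208 genes besides the 10, of which 198 were tested, and 0 passed in either direction in limma (0.00715% of all tested genes). DESeq2 called 7 higher and 9 lower, against 1.15% and 0.835% of all genes with an adjusted p. Of the 27 tested receptor, adaptor and feedback genes, 5 were higher and 1 lower at an unadjusted p under 0.05 (5.04% and 6.24% of all tested genes). In this list 17 were positive, with a median log2 fold change of 0.12, against 0.003 over all tested genes. Leaving out anti-PD-1 replicate 1 put that median at 0.048, replicate 2 of the group at 0.18, and isotype control replicate 3 at 0.070. Grb10, an adaptor that restrains the insulin receptor, had 20.7, 22.8 and 29.1 CPM after anti-PD-1, against 10.3, 15.1 and 17.6 CPM in controls (log2 fold change 0.76 ± 0.21, limma adjusted p = 0.282). Cblb, a ubiquitin ligase that also restrains T cell activation, had 45.5, 46.0 and 35.85 CPM after anti-PD-1, against 19.75, 28.2 and 26.1 CPM in controls (limma adjusted p = 0.232, DESeq2 adjusted p = 0.00778). Both had all anti-PD-1 values above the controls. Igf1r, Ptpn1 and Grb14 had limma adjusted p of 0.852, 0.669 and 0.907.

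On the PI3K and AKT list (31 tested), 4 genes were higher and 0 lower at an unadjusted p under 0.05 (5.04% and 6.24% of all tested genes). In all, 20 were positive, with a median of 0.14. Leaving out anti-PD-1 replicate 1 put it at 0.0088, and leaving out isotype control replicate 3 at 0.078. Inpp5d, the phosphatase SHIP1 of blood cells, had 32.6, 15.5 and 16.5 CPM after anti-PD-1, against 15.4, 12.0 and 10.4 CPM in controls. Its highest library, anti-PD-1 replicate 1, was also the one richest in T cell, neutrophil, B cell and stellate markers. The part of these cells in Inpp5d was not tested. The mTOR list (25 tested) had 14 positive genes and a median of 0.076. Of these 25 genes, 5 were higher and 1 lower at an unadjusted p under 0.05 (5.04% and 6.24% of all tested genes). Leaving out anti-PD-1 replicate 2 or 3 gave medians of 0.0060 and 0.0086, and leaving out isotype control replicate 2 gave -0.032. Sesn2, a stress-induced inhibitor of mTORC1, had 13.5, 14.0 and 14.5 CPM after anti-PD-1, against 8.15, 9.14 and 9.35 CPM in controls (limma adjusted p = 0.215, DESeq2 adjusted p = 0.0107).

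Of the 41 tested genes listed as FOXO-induced, 30 were positive, and the median was 0.19. At an unadjusted p under 0.05, 10 were higher and 5 lower (5.04% and 6.24% of all tested genes). When isotype control replicate 1 was left out the median was 0.12, and when replicate 3 of the controls was left out it was 0.31. The values lay in both directions, as those of Igfbp1 and Depp1 did. Ppargc1a, the coactivator PGC-1alpha that works with FOXO1 on gluconeogenic genes, had 99.6, 171 and 165 CPM after anti-PD-1, against 18.2, 61.9 and 68.1 CPM in controls (log2 fold change 1.72 ± 0.48, limma adjusted p = 0.279). Without isotype control replicate 1 the log2 fold change of Ppargc1a was 1.12. G6pc, the last enzyme of glucose output, had 1256, 1510.2 and 1607 CPM after anti-PD-1, against 1079, 901 and 967 CPM in controls (limma adjusted p = 0.272, DESeq2 adjusted p = 0.00214). Bcl2l11, the pro-apoptotic BIM gene, had 31.7, 67.5 and 61.4 CPM after anti-PD-1, against 9.87, 25.6 and 23.1 CPM in controls (limma adjusted p = 0.27, 0.0298 with the replicate block, DESeq2 adjusted p = 0.00883). Bcl6, a repressor of lipid and immune genes, had 8.60, 11.5 and 4.45 CPM after anti-PD-1, against 47.3, 52.8 and 12.97 CPM in controls (limma adjusted p = 0.27, 0.0432 with the replicate block). Pdk4, a fasting-induced brake on pyruvate oxidation, had 21.9, 22.4 and 15.5 CPM after anti-PD-1, against 53.0, 30.2 and 22.9 CPM in controls (limma adjusted p = 0.411). Txnip, Klf15, Sesn1 and Fbxo32 had positive log2 fold changes of 0.30 to 0.82, and Sesn3 one of -0.17, none of them passing. Without isotype control replicate 1, Txnip was at 0.44, Klf15 at 0.29 and Sesn3 at -0.058, and without anti-PD-1 replicate 3 Fbxo32 was at 0.23 and Sesn3 at -0.11.

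The 23 tested insulin-induced genes lay mostly the other way, with 18 negative, 11 lower and 1 higher at an unadjusted p under 0.05, and a median of -0.38, where 6.24% of all tested genes were lower and 5.04% higher at that level. In 11 of the 23 all anti-PD-1 values were below the controls (9.98% of all tested genes) and in 0 above (7.13%). Ppp1r3b, which targets a phosphatase to glycogen, had 182, 154 and 139.7 CPM after anti-PD-1, against 409.9, 258 and 231 CPM in controls (limma adjusted p = 0.255, DESeq2 adjusted p = 0.0103). Srebf1, itself an insulin-induced regulator of lipid synthesis, was the 1 gene higher at that level, at 458, 845 and 854 CPM after anti-PD-1, against 355, 427 and 505 CPM in controls (limma adjusted p = 0.38).

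Partners of FOXO had a median of -0.0014 over 23 tested genes. At an unadjusted p under 0.05, 1 was higher and 4 lower (5.04% and 6.24% of all tested genes). The 3 pioneer factor genes Foxa1, Foxa2 and Foxa3, which open liver chromatin, were among the lower ones. Foxa2 had 3.94, 4.53 and 3.36 CPM after anti-PD-1, against 12.3, 6.93 and 6.69 CPM in controls (limma adjusted p = 0.26, DESeq2 adjusted p = 0.0329). The IGF and IGF-binding list (13 tested) had 11 positive genes and a median of 0.23, or 0.14 without isotype control replicate 3. Of the 13, 1 was higher and 0 lower at an unadjusted p under 0.05 (5.04% and 6.24% of all tested genes). Igf1 had 679, 989.9 and 1062 CPM after anti-PD-1, against 717, 705 and 692 CPM in controls (limma adjusted p = 0.522).

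Glucocorticoid-induced genes were listed because Tsc22d3 is one of them. Of 26 tested, 21 were positive and the median was 0.54, so Tsc22d3 lay opposite to most of that list. On log2 values set against the control mean, the 26 genes averaged 0.489, 0.564 and 0.822 in anti-PD-1 replicates 1 to 3. In isotype control replicates 1 to 3 they averaged -0.545, 0.051 and 0.494, so the groups overlapped. In 6 of the 26 all anti-PD-1 values were above the controls (7.13% of all tested genes) and in 2 below (9.98%). At an unadjusted p under 0.05, 11 were higher and 1 lower (5.04% and 6.24% of all tested genes). The lower gene, Dusp1, had 37.1, 31.8 and 35.1 CPM after anti-PD-1, against 55.0, 40.9 and 49.0 CPM in controls (limma adjusted p = 0.282). Zbtb16, a zinc finger gene strongly induced by steroids, had 25.2, 73.2 and 57.2 CPM after anti-PD-1, against 13.2, 15.96 and 16.04 CPM in controls (limma adjusted p = 0.232, DESeq2 adjusted p = 3.9e-05). Mt2, a metallothionein, had 35.1, 45.4 and 67.9 CPM after anti-PD-1, against 0.809, 8.71 and 19.3 CPM in controls (limma adjusted p = 0.295). Per1, a clock gene under glucocorticoid control, had 80.0, 122 and 103 CPM after anti-PD-1, against 16.6, 69.4 and 57.2 CPM in controls (limma adjusted p = 0.384). Isotype control replicate 1 was the lowest library for Mt2 and Per1, as it was for Igfbp1, Irs2, Foxo1 and Foxo3. Fkbp5 and the receptor gene Nr3c1 had limma adjusted p of 0.705 and 0.506. Of all genes on the 8 lists, 11 stand on more than 1 list, so the list counts are not independent.

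**Figure D4:**
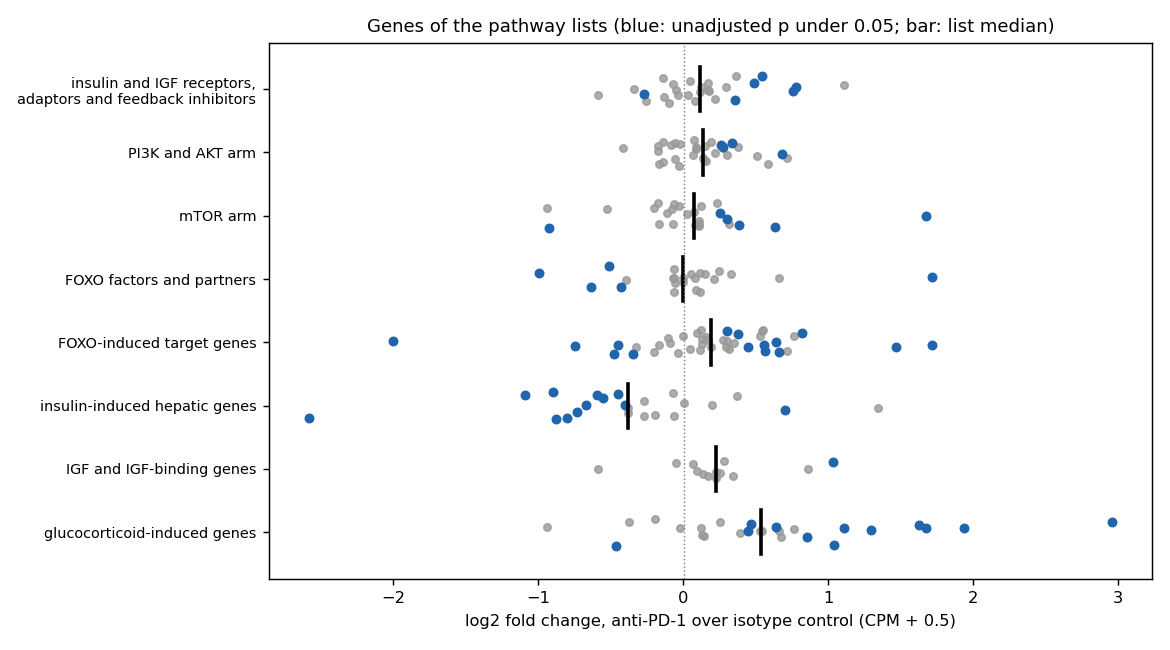
Log2 fold change, anti-PD-1 over isotype control, of every tested gene on the 8 pathway lists; blue points have an unadjusted p under 0.05, the black bar is the list median and the dotted line the median of all 13990 tested genes (0.003). The insulin-induced genes have a median of -0.38 and the glucocorticoid-induced genes one of 0.54, and none of the points passed the adjusted test.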

How the data were processed

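RNA of whole liver was sequenced after ribosomal RNA depletion with a directional kit, per the labels' protocols. The file deposited by the authors gives a normalized signal for each gene in each library. GRCm39, edgeR, Bowtie2, RSEM 1.3.0 and Trimmomatic 0.38 appear in the submitters' processing notes, without roles. All values (100%) were whole multiples of 1 read within 0.001 read, and trimmed-mean factors recomputed from the reads equalled the authors' own, so the values are CPM of a scaled library. Whether the recovered reads are observed or rounded estimates was not tested. A limit of 3 reads equals 0.144 to 0.2 CPM, for counting error only.

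Groups follow the titles. For anti-PD-1 replicates 2 and 3 the labels' treatment entry carries another number after PD, read here as a fill error. Symbols matched 21407 identifiers, and the unmatched ones held 1.2 to 2.7% of reads.

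Genes with at least 1 CPM in at least 3 libraries (13990) were tested with limma 3.58.1 (intensity trend, R 4.3.3) on log2(CPM + 0.5), two-sided, with Benjamini-Hochberg adjustment over all of them. Fold changes are on that scale and understate those of low genes. Intervals are 95%. edgeR 4.0.16, with the authors' factors, and DESeq2 1.42.0 used recovered reads. The fits were checked on simulated counts. Exact permutation of 3 against 3 cannot give p under 0.1. Separate mice are implied by the titles. The p-values set the difference between groups against the spread between these samples, moderated across genes.

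The labels number replicates 1 to 3 in both groups without naming a shared litter or day. Deviations from group means correlated at 0.149, 0.135 and 0.251 for equal numbers and at -0.219 to 0.0631 for unlike numbers. The numbers were taken to pair the mice from these values alone, and the labels do not show a pairing. Because the pairing came from the same values, results with the replicate block or by equal number are no independent evidence of a change.

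The members and lists were chosen with earlier results of these data known. Beside the members, the text names genes by this rule: up to 4 per list with the smallest unadjusted p, and a set of further names. Of the 54 so chosen a part is printed, and 1 is not reported here. Gm9747 was added after its values were seen. Similar transcripts were sought with BLAST 2.17.0 (at least 95% identity over 100 bases) and exon lengths taken from GENCODE, both on GRCm38.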

Additional observations from a re-analysis of the deposited data

How the results depend on the processing

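With library weights in limma, 33 genes were called, 1 of the 10 members (Depp1) and 1 other list gene (Zbtb16). DESeq2 called 261 genes, 1 of the 10 members (Depp1) and 16 other list genes. With the replicate block the counts were 40 genes, 0 members and 2 other list genes (Bcl2l11 and Bcl6), and it changed no other call among the genes named. With each library left out in turn, 0 to 30 genes were called, 0 members and 0 to 1 other list genes. Leaving out anti-PD-1 replicate 1 gave 30 calls and leaving out anti-PD-1 replicate 3 gave 0. Leaving out isotype control replicate 2, which held adipocyte markers, gave 2. The cause of these differences was not tested.

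Insr turned to -0.015 with total-read scaling and -0.054 with quantile normalization, and ran from -0.15 to 0.15 with single libraries left out. Akt2 turned to -0.0049 and -0.020 in the same settings and ran from -0.072 to 0.14. Igfbp1, Irs2, Foxo1, Foxo3, Pik3r1, Irs1, Depp1 and Tsc22d3 kept their sign in every setting run. The mTOR list median ran from -0.032, without isotype control replicate 2, to 0.073 with single libraries left out. The median of the FOXO partners turned to 0.0022 with library weights and 0.013 with DESeq2, and ran from -0.0061 to 0.038. The other 6 list medians kept their sign.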
